A study of Caenorhabditis elegans with 11 samples.

Results

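Alternative 3' splice site (A3SS) events on the X chromosome of Caenorhabditis elegans were described across depletion of SACY-1 from the soma, depletion of SACY-1 from the germline, and a sperm/oocyte comparison. The members were all rows of the authors' deposited splicing table whose event type was A3SS and whose exon lay on chromosome X, which gave 165 of 3096 listed events. Another 1453 A3SS events lay on the 5 autosomes. The 165 events fell in 148 StringTie genes (gene models assembled from the reads), of which 15 held 2 events and 1 held 3.

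SACY-1 is the worm ortholog of the human DEAD-box helicase DDX41, a protein that has been found in spliceosomes. Young adult worms spent 24 hours at 20 °C with 2 mM auxin. RNA selected for poly(A) was then sequenced from lysates of whole worms in 11 samples. Soma controls (strain CA1200, 2 samples, replicates 1 and 3) carried ieSi57, in which the eft-3 promoter drives TIR1::mRuby with the unc-54 3' UTR and a Cb unc-119(+) marker, together with unc-119(ed3). Soma-depleted worms (DG4703, 3 samples) carried the same ieSi57 insertion with the allele tn1880, in which the endogenous sacy-1 gene carries an aid::gfp::myc tag whose first element is an auxin-inducible degron. Germline controls (CA1352, 3 samples) carried ieSi64, with TIR1::mRuby between the gld-1 promoter and the gld-1 3' UTR and the same marker, again with unc-119(ed3). Germline-depleted worms (DG4700, 3 samples) combined ieSi64 with the tagged sacy-1 allele. TIR1, the plant receptor that sends tagged proteins to degradation, was thus present in every group, and all received auxin. The depleted genotypes do not list unc-119(ed3), so this allele and depletion cannot be told apart. The sperm/oocyte column rests on data of a different study, processed by the same authors, and the samples behind it were not analysed here.

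The acceptor, or 3' splice site, is the boundary at which an intron ends and the next exon begins. In worms it is recognised by the UAF-1 and UAF-2 proteins, which bind the short pyrimidine-rich stretch and the terminal AG, and the exact AG is settled in the second catalytic step. Where a pair of AGs lie close together, either can be used, and the exon starts earlier or later by the bases between them. The X chromosome of C. elegans carries fewer germ-cell genes than the autosomes and is largely silent through much, but not all, of germ cell development. In somatic cells of hermaphrodites its expression is lowered by dosage compensation.

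The splicing table deposited by the authors lists for each event an inclusion level difference, a difference between groups in the fraction of transcripts with one form, and a q-value adjusted for the false discovery rate. An event is called here where its q-value is under 0.05. The order of subtraction is not stated, nor whether the longer exon is the included form, so signs are given as deposited. The values are group comparisons without replicate values, so no standard deviation, depth or leave-out check exists for any of them. Every listed event was called in at least 1 of the 3 comparisons, so the shares below are not independent of each other. A share in one comparison also depends on how many events entered the list through the others. In whole-worm RNA, fewer cells of a type and less RNA per cell cannot be told apart.

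The position of the alternative sites was read from the Ensembl annotation of the same build, WBcel235/ce11. The listed exons ran from position 378440 to 17699029 of chromosome X, on the plus strand for 75 events, on the minus strand for 87 and on an unresolved strand for 3. For 137 events the annotation held a shorter exon that shares the other edge, so that an outer acceptor (the start of the listed, longer exon) and an inner acceptor (the start of the annotated, shorter exon) could be paired. The remaining 28 events had no such pair and are counted as not resolved.

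Most pairs were tandem acceptors a few bases apart. The distance was 6 bases in 54 of the 137 pairs (39.4%) and 9 bases in 33 (24.1%), and its median was 8 bases. Distances of 7 and 12 bases came next, with 8 and 7 pairs, and 16 pairs lay more than 30 bases apart. The distance was a multiple of 3, which in coding sequence keeps the reading frame, in 110 of 137 pairs (80.3%). These include pairs outside coding sequence, and stop codons between the sites were not checked. On the autosomes the distance was 6 bases in 32.9% of 1180 pairs, 9 bases in 19.9%, and a multiple of 3 in 68.0%, with the same median of 8. No test of these differences was made, because events of 1 gene share reads and an exon can be listed more than 1 time.

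**Figure D1:**
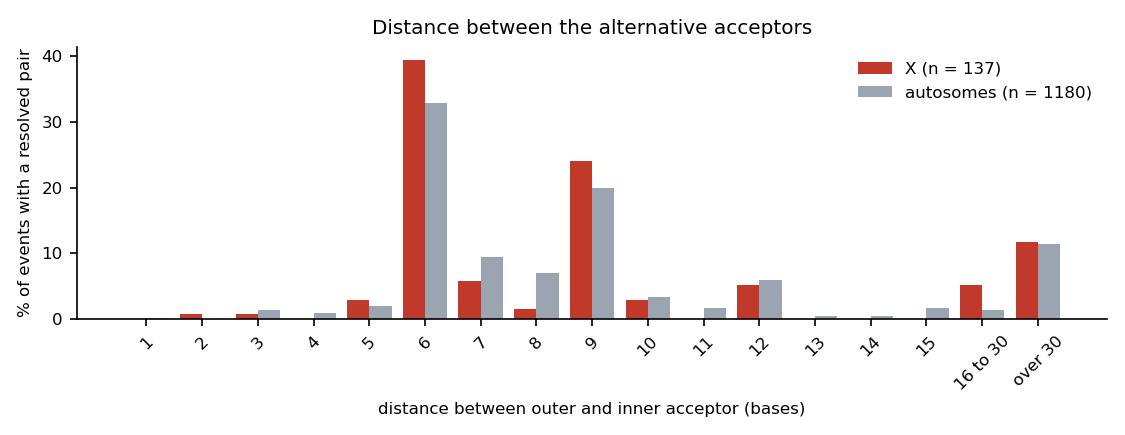
Distance in bases between the outer and inner acceptor (x axis) against the percentage of events with a resolved pair (y axis), for chromosome X (red, 137 events) and the autosomes (grey, 1180 events). The bars at 6 and 9 bases stand above all others in both sets.

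The inner acceptor lay in coding sequence for 132 of the 137 X events, in a 5' UTR for 3 and in no coding annotation for 2. The outer acceptor was not an annotated acceptor in 83 events and was annotated in 54. On the autosomes it was not annotated in 52.2% of pairs, against 60.6% on X. The annotated intron before the inner acceptor had a median length of 64 bases and was at most 100 bases long in 57.7% of pairs. Over all 19033 annotated X acceptors the median intron was 58 bases, with 60.2% at most 100 bases.

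The first comparison asked which of these acceptors shifted on depletion of SACY-1 from somatic cells. By the authors' q-values 138 of 165 X events were called (83.6%), against 53.1% of all 3026 listed events with a soma value, 59.4% of the 1445 autosomal A3SS events and 70.4% of the 321 X events of any type. The sign was negative in 129 and positive in 9. Negative calls made up 78.2% of the X A3SS events, 54.9% of the autosomal A3SS events, 56.1% of X events of any type and 41.2% of all listed events. Positive calls made up 5.45%, 4.5%, 14.3% and 11.8% of these sets. The median difference of the called X events was -0.208, with quartiles of -0.360 and -0.115. The autosomal A3SS median was -0.163 and that of all called events -0.127. The absolute difference reached 0.3 in 49 called X events, 47 of them negative, and was under 0.1 in 22.

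**Figure D2:**
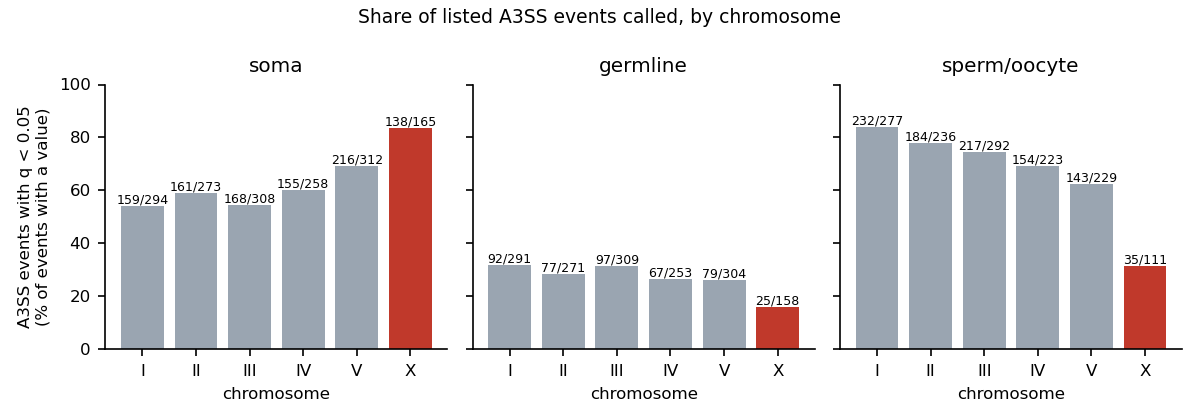
Percentage of listed A3SS events with a q-value under 0.05 (y axis) on each chromosome (x axis) in the soma, germline and sperm/oocyte comparisons, with the number called over the number with a value above each bar. Chromosome X (red) has the tallest bar in the soma panel and the shortest in the other 2 panels.

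Chromosome X had the largest share of A3SS events called in the soma among the 6 chromosomes, where the autosomes ranged from 54.1% for chromosome I to 69.2% for chromosome V. The order was turned in the other comparisons. In the germline 25 of 158 X events were called (15.8%), against 25.99% to 31.6% on the autosomes, and in sperm/oocyte 35 of 111 (31.5%), against 62.4% to 83.8%. The differences between chromosomes were not tested. They depend in part on how events entered the list, since an event listed through another comparison counts as uncalled where it has a value. Calls in sperm/oocyte alone brought in 379 of 1453 autosomal A3SS events and 11 of 165 X events. Calls in the soma alone brought in 388 and 110.

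The 8 most negative soma differences ran from -0.741 to -0.558. The phosphoinositide 3-kinase gene piki-1 led, with a soma difference of -0.741 (q-value 8.5e-06) at an exon of 125 bases on the minus strand, 15241662 to 15241786, in the authors' deposited table. Its acceptors lie 6 bases apart in coding sequence at exon 10 of 23, and the outer acceptor is not annotated. The zinc finger gene zfp-3 (1442494 to 1442635, minus strand) had -0.739, with a q-value listed as 0 and acceptors 9 bases apart at exon 4 of 8, in the authors' deposited table. For rme-4, a DENN-domain gene named for yolk uptake by oocytes, the authors' deposited table gave -0.712 at 10374571 to 10374743, again with a q-value listed as 0 and with acceptors 6 bases apart. These 3 events were not called in the germline, where the authors' deposited table gave -0.132, -0.076 and -0.043.

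The next in order was sulp-7, of the sulfate permease family of anion transporters, with -0.676 and acceptors 10 bases apart in the authors' deposited table. An event listed under C02F12.9, whose inner acceptor is annotated in C01C4.3, had -0.659 and no germline value in the authors' deposited table. The FMRFamide-like peptide receptor gene frpr-7 had -0.599 in the soma and an uncalled 0.193 in the germline in the authors' deposited table. The gene rga-8 had -0.583 (q-value 1.3e-11), and an event listed under nhr-27 and alh-13, whose exon belongs to the aldehyde dehydrogenase family gene alh-13, had -0.558 (q-value 2.0e-11) in the authors' deposited table. The germline values of these last 2 were -0.012 and 0.006 in the authors' deposited table. Of these 8 leading events, 3 had acceptors 6 bases apart and 3 had acceptors 9 bases apart.

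The 9 positive soma events included 6 with a resolved pair, of which 1 had acceptors 6 bases apart and 3 had acceptors more than 30 bases apart. The largest was in T10E10.3, annotated as the neuropeptide receptor family gene npr-38, with 0.574 (q-value 3.1e-05) at 6313637 to 6314205 in the authors' deposited table. An event listed under frm-9, whose exon is annotated in the phospholipase C gene plc-1, had 0.551 with acceptors 30 bases apart in the authors' deposited table. C03F11.4 had 0.265 with acceptors 2 bases apart in its 5' UTR, and the calcium-binding nucleobindin gene nucb-1 had 0.214 with acceptors 42 bases apart, in the authors' deposited table. The AT-hook gene attf-5 (0.212, 36 bases apart) and the ligand-gated channel gene lgc-13 (0.209, 165 bases apart) followed in the authors' deposited table. The last 3, F57C12.2, C09B8.4 and an event listed under pcca-1 and stn-2, had 0.098, 0.088 and 0.077 in the authors' deposited table.

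The sign of the soma difference went with the distance between sites. Of 54 events at 6 bases, 46 were called, 45 of them negative, with a median of -0.270. Of 33 events at 9 bases, 31 were called, all negative, with a median of -0.256. At other distances up to 30 bases 32 of 34 events were called, 30 negative and 2 positive, with a median of -0.181. Of the 16 pairs more than 30 bases apart, 7 were called, 4 negative and 3 positive, with a median of -0.054. The autosomes showed a like order, with 212 of 215 called events negative at 6 bases, 150 of 152 at 9 bases and 49 of 72 beyond 30 bases. The distances come from the annotation, while the caller worked on StringTie models, so a pair here may not be the pair that was tested.

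**Figure D3:**
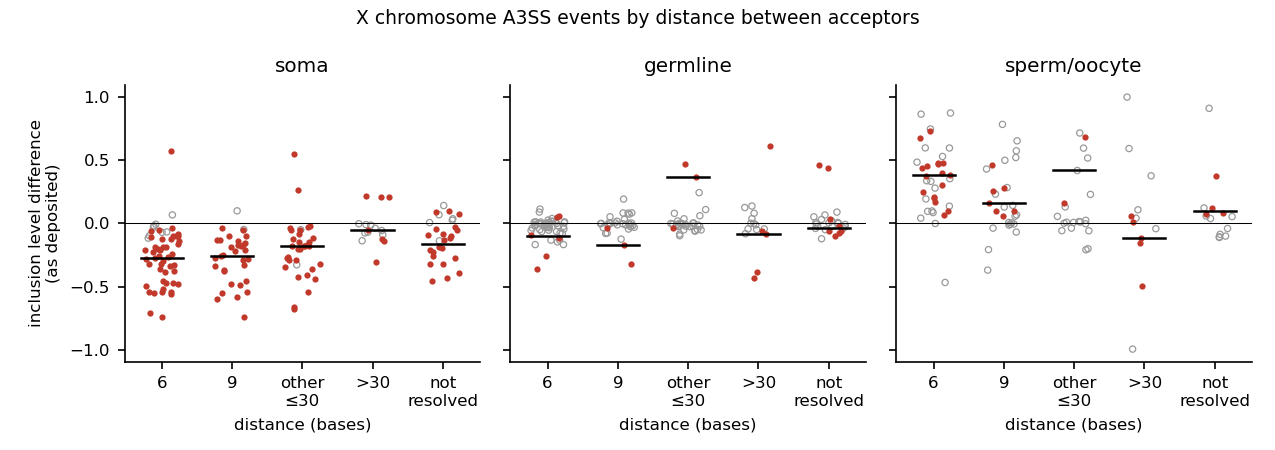
Inclusion level difference as deposited (y axis) of X chromosome A3SS events by distance between acceptors in bases (x axis) for the 3 comparisons. Filled red points have a q-value under 0.05, open points do not, and the black line is the median of the called events, which lies at -0.270 for soma events 6 bases apart.

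Among the listed X events, the germline comparison gave fewer calls and mostly smaller differences. By the authors' q-values 25 of 158 X events were called (15.8%), against 26.5% of all 3002 listed events with a germline value, 28.9% of the 1428 autosomal A3SS events and 22.9% of the 315 X events of any type. The 17 negative calls were 10.8% of the X A3SS events, against 25.1% on the autosomes, 13% for X events of any type and 18.3% over all events. The 8 positive calls were 5.06%, against 3.78%, 9.84% and 8.26%. Their median was -0.058, against -0.106 for called autosomal A3SS events. Of the 138 events called in the soma, 131 had a germline value, and 113 of these germline values were under 0.1 in size. Their germline median was -0.008, with 79 negative and 49 positive. Over the 158 events with both values, the soma difference was the larger in size in 138 and the germline difference in 20, with median sizes of 0.190 and 0.033. For autosomal A3SS events the corresponding medians were 0.096 and 0.051. Of the 165 X events, 110 were called in the soma alone and 16 in the germline alone. On the autosomes these counts were 388 and 101 of 1453. A list filled mostly through soma calls favours larger soma differences and small germline values. The sizes here thus do not measure which depletion had the larger effect. Across the 158 X events, which share libraries within each comparison, Pearson's r between soma and germline differences was 0.11.

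**Figure D4:**
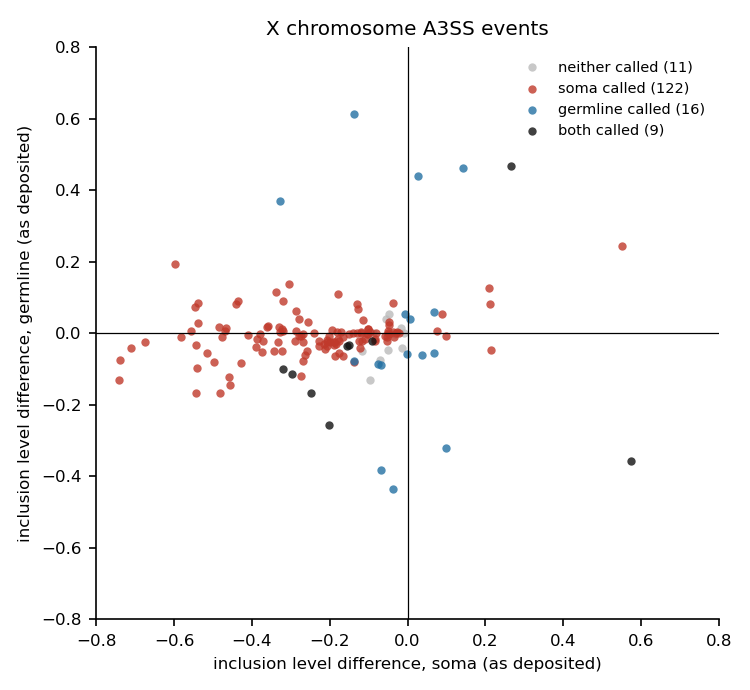
Soma (x axis) against germline (y axis) inclusion level differences as deposited for the 158 X chromosome A3SS events with both values, coloured by where the q-value was under 0.05. Most events called in the soma lie left of 0 and close to the horizontal line at 0, and the 9 events called in both are black.

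Of the 25 germline events, 9 were also called in the soma, which is 36% of the germline list and 6.52% of the soma list. On the autosomes 197 shared events made up 47.8% and 22.9%. The 9 shared X events comprised 7 negative in both comparisons, 1 positive in both and 1 of opposite sign. The choline transporter-like gene chtl-1 (5358609 to 5358768, minus strand, acceptors 6 bases apart) had -0.201 in the soma and -0.257 in the germline in the authors' deposited table. The palmitoyltransferase gene dhhc-9 (2401766 to 2401875, 6 bases apart) had -0.298 and -0.114, with q-values of 3.4e-15 and 3.6e-05, in the authors' deposited table. K09E9.3 had -0.248 and -0.167, both with q-values just under the threshold (0.042 and 0.049), in the authors' deposited table. The lunapark gene lnp-1, which shapes the endoplasmic reticulum, had -0.319 and -0.100 in the authors' deposited table. The other negative events, in the acyltransferase-like gene acl-4 (-0.155 and -0.036), the kinase-binding protein gene tap-1 (-0.150 and -0.033) and C09B7.2 (-0.092 and -0.023), were weaker in both columns of the authors' deposited table. C03F11.4 was positive in both, 0.265 and 0.468, and T10E10.3 was 0.574 in the soma and -0.358 in the germline, in the authors' deposited table. The opposite signs of T10E10.3 were not tested against each other.

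The 16 X events called in the germline but not in the soma were 9 negative and 7 positive. Among the 10 with a resolved pair, the median distance was 40 bases and 5 lay more than 30 bases apart. Among 161 such autosomal pairs the median was 9 bases and 29 lay more than 30 bases apart, and the difference was not tested. The largest germline difference on X was that of xol-1, the switch gene of sex determination and dosage compensation. It had 0.612 (q-value 3.5e-08) at 8043397 to 8044409, with acceptors 698 bases apart before the last of 7 exons, and an uncalled -0.137 in the soma, in the authors' deposited table. The astacin protease gene nas-33 had 0.461, C15H9.3 had 0.440 and F18E9.8 had 0.369 in the authors' deposited table, with q-values of 0.029, 0.010 and 0.040. In F18E9.8 the uncalled soma value was -0.327 in the authors' deposited table. The ceramide glucosyltransferase gene cgt-2 (0.058), R11G1.6, annotated as tmem-24 (0.054), and an event listed under F41E7.7 and F41E7.18 (0.039) completed the positive germline events in the authors' deposited table.

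The most negative germline difference was -0.435, in W03G11.3 (12103121 to 12103290, acceptors 58 bases apart), in the authors' deposited table. An exon listed under T25B2.4 and T13C5.3, with acceptors 870 bases apart in a 5' UTR of T13C5.3, had -0.382 in the authors' deposited table. The chloride channel gene clh-4 (4096374 to 4096448, acceptors 9 bases apart) had -0.321 (q-value 0.00054), beside an uncalled 0.1 in the soma, in the authors' deposited table. Neither W03G11.3, clh-4 nor the T13C5.3 exon had a sperm/oocyte value.

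The third readout was the sperm/oocyte comparison. Of the 165 X events, 111 had a value there, and 43 of the 54 without one were called in the soma. By the authors' q-values 35 of 111 were called (31.5%), against 65% of all 2460 listed events with a value, 74% of the 1257 autosomal A3SS events and 32.3% of the 201 X events of any type. The 32 positive calls were 28.8% of the X A3SS events, against 69.5% on the autosomes, 24.4% for X events of any type and 48.4% over all events. The 3 negative calls were 2.7%, against 4.46%, 7.96% and 16.6%. The median of the called X events was 0.210, and that of called autosomal A3SS events 0.179. The authors marked 24 X events as oocyte-enriched, 23 with a positive and 1 with a negative difference, and none as sperm-enriched. All 24 were also called in the soma. The other 11 called events, which were called in sperm/oocyte alone, carry no direction in that column. Both nucb-1 events carry the oocyte mark, with sperm/oocyte differences of -0.118 and 0.097. The mark thus does not follow the sign of that difference alone.

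The exocyst gene sec-15 had the largest called sperm/oocyte difference on X, 0.731, with acceptors 6 bases apart at 8833634 to 8833761, in the authors' deposited table. The axon guidance receptor gene sax-3 (Robo) had 0.686 and piki-1 had 0.675 in the authors' deposited table. The dosage compensation and sex determination gene sdc-1 had 0.482 at an exon starting at 16276961, with uncalled soma and germline values of -0.097 and -0.131, in the authors' deposited table. Its second event, at 16278624 to 16279019, was called in the soma instead (-0.176) and had an uncalled 0.025 in sperm/oocyte in the authors' deposited table. A pair of subunit genes of the energy sensor AMP-activated kinase, aak-2 (0.475) and aakg-2 (0.467), each had acceptors 6 bases apart, and rga-8 (0.461) and dhhc-9 (0.452) followed, in the authors' deposited table. The 3 negative events, taf-3 of the general transcription factor TFIID (-0.491), F35A5.8 (-0.158) and nucb-1 (-0.118), all had acceptors more than 30 bases apart.

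Events called in both the soma and sperm/oocyte comparisons had opposite signs in the 2 columns as deposited. There were 24 such X events, 23 negative in the soma and positive in sperm/oocyte and 1, the outer nucb-1 event, the reverse. They made up 17.4% of the soma list and 68.6% of the sperm/oocyte list, where 83.6% of all 165 X events were called in the soma. On the autosomes 437 events called in both comparisons made up 50.9% and 47.0% of the 2 lists. Of these 437, 419 were negative in the soma and positive in sperm/oocyte, and 4 were the reverse. The subtraction order is not stated for either column, so opposite signs do not show opposite use of a site. Of the 1453 autosomal A3SS events, 1257 with a sperm/oocyte value, 163 were called in all 3 comparisons. Of the 165 X events, 111 with such a value, 5 were called in all 3. These 5 were those of dhhc-9, lnp-1, chtl-1, K09E9.3 and C09B7.2. Each was negative in the soma and the germline and positive in sperm/oocyte, where the authors' deposited table gave 0.452, 0.122, 0.169, 0.101 and 0.082.

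Large sperm/oocyte differences without a call were frequent on X. Of the 76 uncalled X events with a value, 75 had a q-value of 1, and 27 had an absolute difference of at least 0.3. For zfp-3, rme-4 (the exon at 10374571 to 10374743) and lgc-13 the authors' deposited table gave 0.784, 0.598 and 1.000, each with a q-value of 1. Of 327 uncalled autosomal A3SS events, 46 had a difference of that size. Read support per event was not used here, and its part in these calls was not tested. In the soma and the germline, 1 and 0 uncalled X events reached 0.3.

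**Figure D5:**
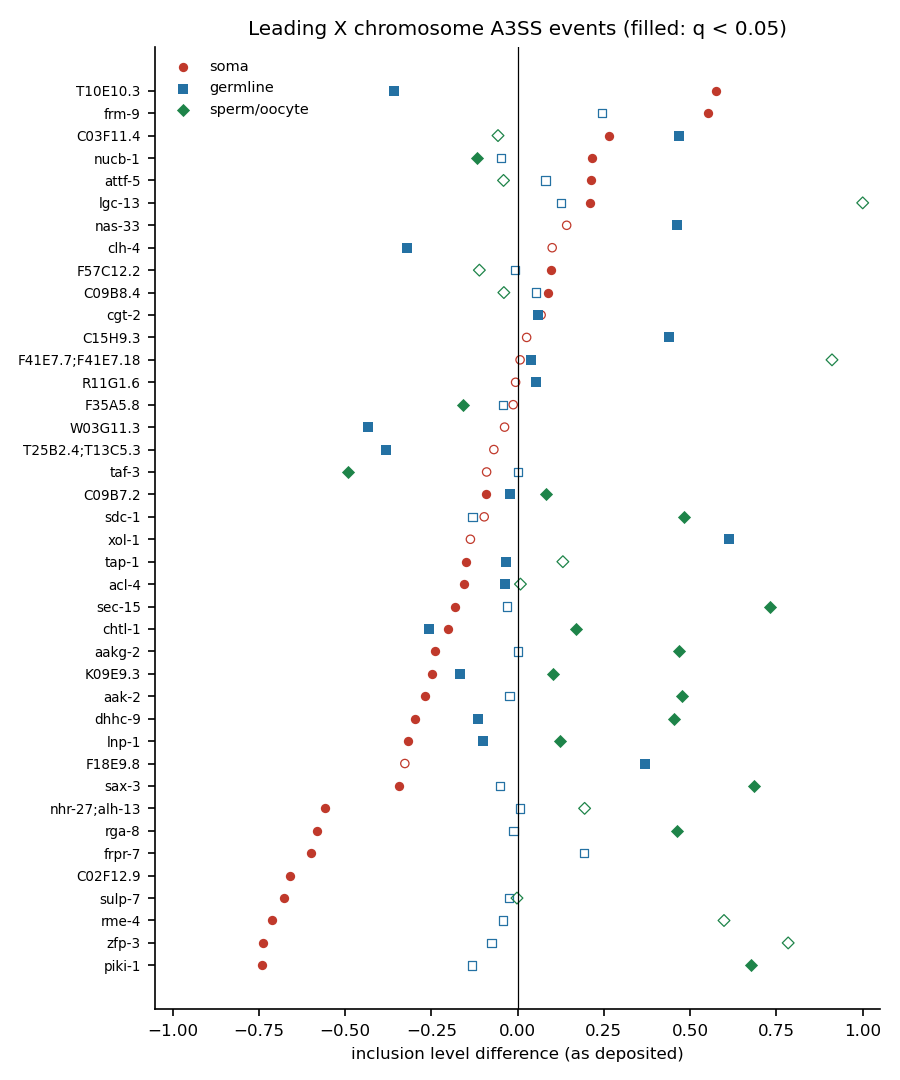
Inclusion level differences as deposited (x axis) of the leading X chromosome A3SS events (y axis, listed gene names, in order of the soma value) in the soma (circles), germline (squares) and sperm/oocyte (diamonds) comparisons, filled where the q-value was under 0.05. Soma circles at the bottom of the plot reach -0.741 while the germline squares of the 8 lowest events lie between -0.132 and 0.193, with 1 event lacking a germline value.

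Several genes held more than 1 event. F52H2.6, annotated as the sterol reductase family gene dhcr-24, held 3, all in 1 exon on the minus strand, whose downstream edge is at 2562014. Its 3 outer acceptors, at 2562258, 2562267 and 2562276, lay 9, 18 and 27 bases before the annotated inner acceptor. The authors' deposited table gave these soma differences of -0.188, -0.199 and -0.286, all called, and no germline or sperm/oocyte call. In nucb-1 the listed exons start at 10199764 and 10199797 and end together, with the inner acceptor 42 and 9 bases downstream. The authors' deposited table gave 0.214 and -0.215 in the soma, and -0.118 and 0.097 in sperm/oocyte, all called. The members of each set overlap and can share reads, so their values are not independent.

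In 13 genes at least 2 events were called in the soma, and in 11 of these all such events were negative. Of all 138 X soma calls 93.5% were negative, and no result about these genes is drawn from the count. In R04A9.3 and F52H2.6, which are among the 11, the events overlap. Chosen after their values were seen, the kinase gene pdk-1 of insulin signalling had soma differences of -0.543 and -0.482 at exons starting at 1325069 and 1326073, and the G protein regulator gene rgs-7 had -0.516 and -0.334, in the authors' deposited table. The exceptions were nucb-1 and the StringTie gene that holds C03F11.4 (0.265) and C41A3.2 (-0.110). The histone demethylase gene jmjd-3.1 held 2 overlapping events called in the germline alone, with -0.087 and -0.079 in the authors' deposited table.

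Other types of event were listed in 25 of the 148 StringTie genes, 30 events in all. They were 12 retained introns, 11 skipped exons, 6 alternative 5' splice sites and 1 pair of mutually exclusive exons. Some are named for another gene, such as gyg-1 in the StringTie gene of rgs-7. Some, such as the retained introns of C37E2.2, M153.1 and lec-9, share an edge with a listed A3SS exon and can share reads with it. Of the 12 retained introns 11 were called in the soma and none in the germline, where 52.2% and 27.9% of all listed retained introns with a value were called. Of the 11 skipped exons 4 were called in the soma and 6 in the germline, against 35.4% and 21.8% of all listed skipped exons. Over X events of any type the shares were 70.4% in the soma and 22.9% in the germline. Shares for X retained introns or X skipped exons alone were not computed, and these small counts were not tested. Chosen after its values were seen, acs-22, an acyl-CoA synthetase gene, had a retained intron with a soma difference of 0.569 beside A3SS differences of -0.181 and -0.047.

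The authors' deposited table of expression lists 882 genes. No result is drawn from its overlap with the genes of the X events, since its share of all annotated genes was not computed. That table held 5 of the 155 genes matched by name to the X events. In it the nuclear hormone receptor gene nhr-71, whose event had -0.458 in the soma, had means of 5.56 FPKM (fragments per kilobase of transcript, scaled to sequencing depth) in soma controls and 15.1 FPKM after soma depletion, with 6.23 and 5.01 FPKM in the germline control and depleted groups. Its log2 fold change in the authors' deposited table was 1.44 in the soma (DESeq2 adjusted p = 1.8e-14) and -0.31 in the germline (adjusted p = 0.13). The Rab GTPase-activating protein gene eat-17 had 3.17 and 6.62 FPKM in the soma groups and 5.65 and 3.93 FPKM in the germline groups of the authors' deposited table. It held an event with a called soma difference of -0.547, and a second event, listed under F01G12.18 and eat-17, had a called -0.116 in the soma and a called 0.071 in sperm/oocyte, in the authors' deposited table. T10B10.3, annotated as pkhm-2, had 3.49 and 8.22 FPKM in the soma groups, and its event was called in sperm/oocyte alone (0.203), in the authors' deposited table. F09C8.1 fell from 97.9 to 46.8 FPKM after soma depletion, with an event at -0.119, in the authors' deposited table. C07B5.2 is listed beside gap-2, whose exon holds the event, and rose from 1.15 to 2.56 FPKM after germline depletion (DESeq2 adjusted p = 0.026) in the authors' deposited table. Of all 882 listed genes 59.5% passed in the soma and 62.9% in the germline, and of these 5 genes 4 and 2.

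Lists of genes were also looked up. How many genes of each list lie on chromosome X was not counted. A list without an X event is therefore no result about its genes. A list of 19 splicing genes, among them factors of acceptor recognition and of the second step, held no X event. Only prp-8 of these, on chromosome III, held a listed event. This A3SS event had an uncalled 0.021 in the soma and a called -0.062 in the germline in the authors' deposited table. None of the 19 was in the expression table. The dosage compensation list of 13 genes held 3 X events in sdc-1 and xol-1, described above. The muscle list of 26 genes held 2, in the potassium channel gene twk-18 (soma -0.027, called) and at unc-98 and pcyt-1 (germline -0.058, called). The neuronal list of 28 genes held sax-3, with a called -0.343 in the soma. The cuticle and basement membrane list of 18 genes held the type IV collagen gene let-2, with a called 0.059 in sperm/oocyte and uncalled -0.056 and 0.038 in the soma and the germline. The lists of 16 germline, 14 sperm and 12 intestine genes held no X event. In the expression table stood 3 of the sperm genes (spe-11, nspd-1 and sss-1) and 2 of the intestine genes (vit-3 and mtl-2), all higher after soma depletion, and 3 of the cuticle genes (dpy-8, rol-6 and sqt-2), all lower. After germline depletion 1 of these sperm genes and 1 of these intestine genes were higher and 2 of these cuticle genes lower. Of the neuronal list the table held mec-7 and the apoptosis gene egl-1, with 1 lower in the soma comparison and 1 higher and 1 lower in the germline comparison. Of all 882 listed genes 29.7% were higher and 29.8% lower in the soma, and 41.8% and 21.1% in the germline. The table held none of the muscle, germline and dosage compensation lists. The part of such tissue differences in the splicing differences was not tested.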

How the data were processed

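Poly(A)+ RNA of 11 samples in 4 groups was sequenced. The submitters' processing notes name STAR 2.7.2a, DESeq2 1.26.0, SAMtools 1.7, cutadapt 1.18 and Trim Galore 0.6.0, and the build WBcel235/ce11. Which program called the splicing events is not stated in the labels or headers. The authors deposited q-values and inclusion level differences for splicing events on StringTie models, and, for genes of Ensembl 97, group mean FPKM, log2 fold changes and adjusted p-values, per the file headers. All are group values, so no model was fitted and no depth is known.

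Events were counted at a q-value under 0.05 and set beside autosomal A3SS and all listed events, with no test over events. Listed starts count from 0, since the start plus 1 was an annotated exon start for 120 of 165 events and the start itself for 2; coordinates here count from 1. Strand and acceptor pairs came from Ensembl 115, using the nearest annotated inner acceptor of an exon that follows an intron; 161 events matched a gene by name. The pairing was tested on simulated data in which genes did not overlap and the inner acceptor was always annotated. Overlapping genes and unannotated inner acceptors were thus not covered.

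Named were up to 8 called events per sign and comparison, up to 10 shared by soma and germline, those called in all 3, genes with 3 or more events, genes in the expression table and members of the lists. The members and lists were chosen with earlier results of these data known. Splice site sequences were not analysed here. Python 3.11.15, numpy 2.4.6, pandas 2.3.3, scipy 1.17.1 and matplotlib 3.10.9 were used.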

Additional observations from a re-analysis of the deposited data

How the results depend on the processing

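No paired analysis was possible because the deposited columns are group values without replicate numbers, and leaving out replicates could not be run for the same reason. The search for acceptor motifs was not run. Requiring an absolute difference of at least 0.2 left 79 of the 138 soma calls and 20 of the 35 sperm/oocyte calls. The germline count of 25 fell to 13 at a q-value threshold of 0.01, to 5 at 0.001, to 13 with a minimum difference of 0.1 and to 10 with 0.2. The 9 events shared by soma and germline fell to 4 at 0.01. The germline median of called events moved from -0.058 to -0.1 at a threshold of 0.01. Other counts and medians stayed within 1.5 times of their main value. Negative signs made up 92.4% to 96.5% of soma calls, and 50% to 84.6% of germline calls, where 50% is 5 of the 10 calls with a difference of at least 0.2. Distances that are a multiple of 3 made up 77.0% to 82.8% under 3 other pairings, which were chosen after seeing the data. Group values limit every statement here, since neither depth nor replicate spread is known.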
